A study of Caenorhabditis elegans with 2 samples.

Results

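Tandem runs are stretches of protein-coding genes that follow each other closely on the same strand, the arrangement that operons of Caenorhabditis elegans have. They were chosen by position alone on the genome build WBcel235 (ce11). A gene was linked to the nearest protein-coding gene that lay upstream of it on the same strand when its 5′ end was 50 to 500 bp past the 3′ end of that gene, and linked genes were chained into runs. The first gene of a run is called its head, and the genes after it are called downstream genes. The rule gave 5967 genes of 19973 protein-coding genes, of which 2560 were heads and 3407 were downstream genes, while 14006 genes were in no run. No data on trans-splicing entered the rule, so the runs are operon-like by spacing and are not a list of proven operons.

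In an operon of C. elegans, several genes are transcribed from a promoter before the first gene into one precursor RNA. That RNA is cut between the genes, and the spliced leader SL2 is joined to the messages of the downstream genes, while the first gene usually carries SL1 or no leader. The gap between genes of an operon is typically short, and operons are known to hold many genes for translation, RNA processing and mitochondrial function. Some downstream genes are also known to have a promoter of their own inside the operon, and such operons are called hybrid operons. A transcription factor that binds promoters therefore has a different place to bind at a head than at a gene further along.

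The occupancy of LSY-2 was measured by chromatin immunoprecipitation with sequencing (ChIP-seq). LSY-2 is a transcription factor with C2H2 zinc fingers, best known from the ASE taste neurons, where the left and right cells need it to differ. The material was whole L2 larvae of both sexes from strain OP367, genotype unc-119(tm4063) III; wgIs367, in which the C-terminal end of LSY-2 carries GFP and FLAG. Both samples are biological replicates of this 1 group, with 1 library each, so all animals shared the allele, the transgene and the stage, and no sample lacked the tagged protein. All cells that made the tagged LSY-2 contributed to the peaks, and the labels do not say which cells those were or what drives the transgene. The control reads were not analysed here. The authors' optimal peak list held 6312 peaks made from both replicates, and each replicate was also read by its own 6312 strongest peaks out of 30000. Of the strongest peaks in each replicate, 80.4% had a summit of the other replicate within 200 bp. No read counts were given, so the sequencing depth is unknown.

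A gene was counted as having a promoter peak when an optimal summit, the base where a peak is highest, lay from 1000 bp upstream to 200 bp downstream of its 5′ end. The authors' peak caller scored each peak, on a scale not given in the sources used here, and the score was used to rank peaks within a list. Genes are not replicates, and 2 samples of 1 group allow no test over samples. Values are therefore given as counts and shares with exact Clopper-Pearson 95% intervals, which cover the counting of genes only, and beside them the values of replicate 1 and replicate 2. Neighbouring genes can share a summit, so the genes counted are not independent of each other either.

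The sequences below come from the RefSeq genome sequence of WBcel235 and are written 5′ to 3′ on the strand of the named gene. The first 3 show the bases around the strongest summits at heads, 100 bases to either side of the summit, as far as they lie between genes. The capitals mark ACCGTA, a 6-letter word that had stood out around the strongest peaks in earlier work on these data, or TACGGT, which is the same word read on the other strand. The regions are chrIV:4749965-4750165 on the minus strand for rpl-18A, chrIV:654830-655030 on the minus strand for rpl-15 and chrV:11764459-11764659 on the plus strand for syx-5.
rpl-18A: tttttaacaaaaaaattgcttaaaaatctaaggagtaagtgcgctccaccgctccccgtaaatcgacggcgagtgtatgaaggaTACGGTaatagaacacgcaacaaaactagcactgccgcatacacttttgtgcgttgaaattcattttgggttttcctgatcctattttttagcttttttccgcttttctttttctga
rpl-15: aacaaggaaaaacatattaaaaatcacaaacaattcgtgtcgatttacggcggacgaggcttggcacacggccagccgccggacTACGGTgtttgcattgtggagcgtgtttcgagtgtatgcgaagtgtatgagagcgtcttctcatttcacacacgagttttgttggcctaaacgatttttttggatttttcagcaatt
syx-5: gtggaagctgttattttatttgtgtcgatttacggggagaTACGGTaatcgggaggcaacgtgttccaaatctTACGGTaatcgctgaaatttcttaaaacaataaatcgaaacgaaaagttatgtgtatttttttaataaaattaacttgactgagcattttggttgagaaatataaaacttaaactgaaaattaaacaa

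The next 3 regions surround the summits in the gaps before downstream genes, shown as examples from the strongest of their kind that hold the word. They are chrIV:12371979-12372179 on the plus strand for wdr-46, chrIII:9546062-9546257 on the plus strand for unc-16 and chrIV:7791304-7791504 on the minus strand for rsp-6. Capitals also mark GAGAGA (as TCTCTC) at unc-16 and ACGCAG (as CTGCGT) at rsp-6, 2 more words from that earlier work.
wdr-46: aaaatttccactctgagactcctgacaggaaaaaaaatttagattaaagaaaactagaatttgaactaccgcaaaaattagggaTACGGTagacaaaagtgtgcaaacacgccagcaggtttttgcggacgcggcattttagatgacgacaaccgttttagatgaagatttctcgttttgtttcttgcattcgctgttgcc
unc-16: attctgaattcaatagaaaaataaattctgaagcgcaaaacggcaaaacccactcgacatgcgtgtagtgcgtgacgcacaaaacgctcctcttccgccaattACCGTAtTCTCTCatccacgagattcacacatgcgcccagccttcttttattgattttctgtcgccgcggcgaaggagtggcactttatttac
rsp-6: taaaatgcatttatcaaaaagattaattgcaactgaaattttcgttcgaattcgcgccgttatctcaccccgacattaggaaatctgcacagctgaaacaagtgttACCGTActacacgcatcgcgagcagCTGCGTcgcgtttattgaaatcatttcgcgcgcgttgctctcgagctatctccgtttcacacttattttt

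The last 4 are whole gaps of about the most frequent length, shown for contrast, with the final CAG before the downstream gene in capitals. CAG ahead of an annotated 5′ end has the letters of a splice acceptor, where a leader can be joined. They are chrV:15000542-15000650 before rps-16, chrV:11415160-11415271 before deg-3, chrIV:4744268-4744376 before elac-2 and chrX:3113342-3113442 before gpd-3, all on the minus strand. The gap before gpd-3 held a weak summit, and rps-16, deg-3 and elac-2 had no promoter peak.
rps-16: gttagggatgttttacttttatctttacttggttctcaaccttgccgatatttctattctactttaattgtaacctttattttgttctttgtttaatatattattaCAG
deg-3: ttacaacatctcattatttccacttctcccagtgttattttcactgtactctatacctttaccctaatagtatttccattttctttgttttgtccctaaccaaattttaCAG
elac-2: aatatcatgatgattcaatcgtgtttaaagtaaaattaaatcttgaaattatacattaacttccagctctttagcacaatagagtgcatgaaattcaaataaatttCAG
gpd-3: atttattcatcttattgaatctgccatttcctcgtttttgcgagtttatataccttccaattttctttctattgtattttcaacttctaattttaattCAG

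The runs were short. Of 2560 runs, 1956 had 2 genes, 442 had 3, 106 had 4, 39 had 5 and 17 had 6 or more, up to 8. The median gap was 202 bp, with quartiles at 107 and 345 bp, and the fullest 10 bp bin was 100 to 109 bp, with 326 links. That narrow crowding of gaps near 100 bp is the spacing known for operons linked by SL2. The rule also took some heads with a gene close by on the same strand: 102 heads had their 5′ end inside another gene of that strand, and 61 had one that ended 0 to 49 bp upstream, which is too near for the rule to link. In 21 cases a gene was followed by more than 1 linked gene, because the genes after it overlapped.

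Heads had an LSY-2 promoter peak more often than the genes behind them. Of 2560 heads, 843 had a promoter peak, a share of 32.9% (95% interval 31.1 to 34.8%), against 19.2% of all 19973 protein-coding genes. Of 3407 downstream genes, 501 had one, 14.7% (13.5 to 15.9%). Among genes in no run the share was 17.8% (17.1 to 18.4%, 2487 of 14006). The difference between heads and downstream genes was 18.2 percentage points, or 2.24 times. In replicate 1 the shares were 33.2% and 14.6%, with 19.3% of all genes called, and in replicate 2 they were 32.9% and 14.6%, with 19.2% of all genes called. The difference was 18.5 points in replicate 1 and 18.3 points in replicate 2, so its SD over the replicates of 0.186 points was small beside it. It was 10 points (22.6% and 12.6%) when each summit counted only for the gene with the nearest 5′ end, and 33.8 points when gaps of 50 to 200 bp alone linked genes. Heads lay well above the share of all genes in both replicates, and downstream genes lay below it. The heads with another gene of their strand over the 5′ end had a peak in 15.7% of 102 cases and those with one that ended 0 to 49 bp upstream in 11.5% of 61, so the other 2397 heads had a share of 34.2% (32.3 to 36.1%).

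The lower share began at the second gene and held further along the run. Genes in the second place had a promoter peak in 387 of 2574 cases (15%, 13.7 to 16.5%), those in the third in 75 of 597 (12.6%, 10 to 15.5%) and those in the fourth or later in 39 of 236 (16.5%, 12 to 21.9%). The intervals of these 3 places overlap each other, and none reaches that of the heads. Replicate 1 gave 15%, 12.4% and 16.5%, and replicate 2 gave 15%, 12.6% and 16.1%.

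**Figure D1:**
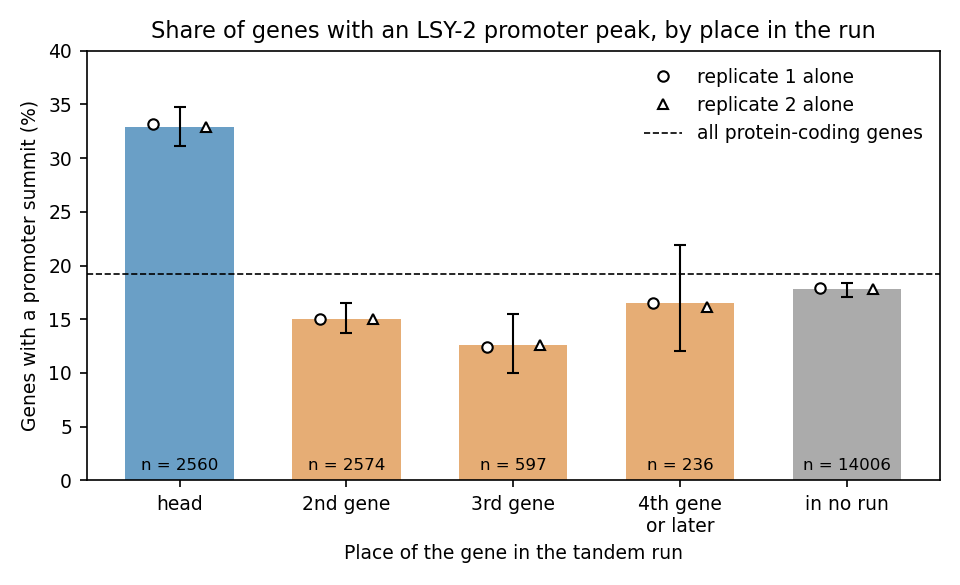
Share of genes with an optimal summit in the promoter window (percent) by place in the run. Bars are the optimal list, error bars exact 95% intervals, circles and triangles the replicates alone, and the dashed line the 19.2% of all protein-coding genes. Heads stand at 32.9%, and the genes in the second place or later lie between 12.6% and 16.5%.

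The summits lay close ahead of the 5′ ends in both classes, at different densities. In the 100 bp bin from 200 to 100 bp upstream, where all classes had most summits, heads had 94.1 summits per 1000 genes, downstream genes 45.8 and genes in no run 41.8. The median position was 237 bp upstream of the 5′ end at heads and 156 bp upstream at downstream genes. In the bin from -600 to -500 bp, which at a downstream gene always lies beyond a gap of at most 500 bp, downstream genes had 0.881 summits per 1000 genes and heads had 16.8. Toward the far edge of the window the downstream profile went up again to 10.9 per 1000 genes, beside 10.5 at heads.

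**Figure D2:**
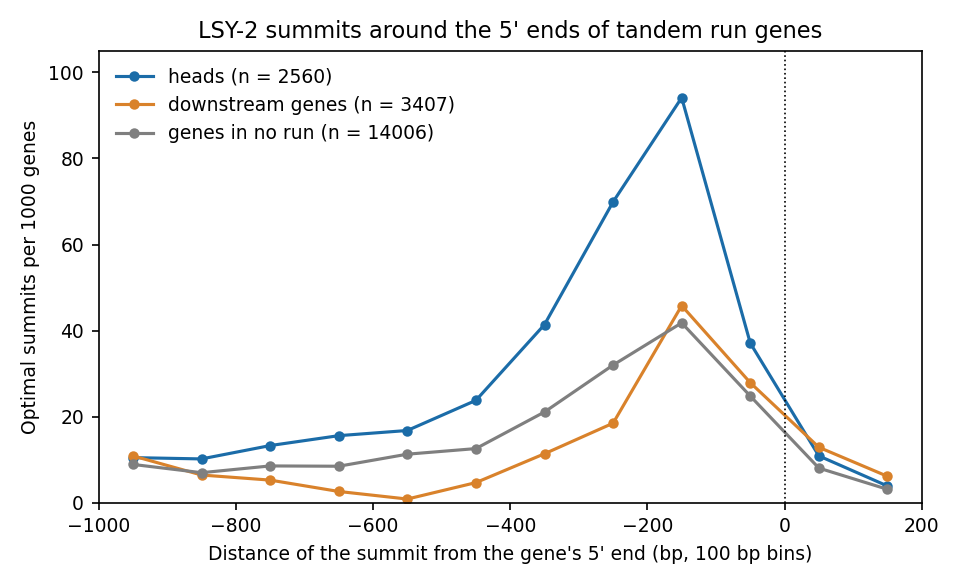
Optimal summits per 1000 genes in 100 bp bins of distance from the 5′ end (bp, negative is upstream) for heads, downstream genes and genes in no run. All 3 classes peak 200 to 100 bp upstream, at 94.1, 45.8 and 41.8 summits per 1000 genes, and the downstream genes dip to 0.881 between -600 and -500 bp.

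The gap between linked genes, which the choice of heads and downstream genes used only through its limits, divided the runs. Heads whose next gene followed after 50 to 99 bp had a promoter peak in 207 of 438 cases (47.3%, 42.5 to 52.1%), and those with 100 to 149 bp in 288 of 541 (53.2%, 48.9 to 57.5%). At 150 to 199 bp the share was 25.8% (20.4 to 31.8%, 63 of 244). At longer gaps it was 23.3%, 21.8% and 18.5% for 200 to 299, 300 to 399 and 400 to 500 bp. Heads of the operon spacing thus had a peak about as often as not, and heads of the loosest runs were close to the 19.2% of all genes.

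The downstream genes showed the opposite order. Their share was 11.6% after gaps of 50 to 99 bp (69 of 595), 10.3% after 100 to 149 bp (81 of 784) and 13.2% after 150 to 199 bp (41 of 310). It was 18.8%, 17.5% and 17.8% for the 3 longer classes. Taken in 2 classes, gaps of 50 to 199 bp had heads at 45.6% (42.8 to 48.5%, 558 of 1223) and downstream genes at 11.3% (9.84 to 12.9%, 191 of 1689). Gaps of 200 to 500 bp had heads at 21.3% (19.1 to 23.6%, 285 of 1337) and downstream genes at 18% (16.3 to 19.9%, 310 of 1718). The replicates differed by little from these values. With short gaps (under 200 bp) and long gaps (200 bp or more) told apart, short-gap heads had 45.9% and 45.8%, long-gap heads 21.5% and 21.2%, short-gap downstream genes 11% and 11.5%, and long-gap downstream genes 18.2% and 17.8%. The gap between heads and downstream genes was wide in tightly spaced runs, and the intervals of both classes overlapped in loosely spaced runs.

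**Figure D3:**
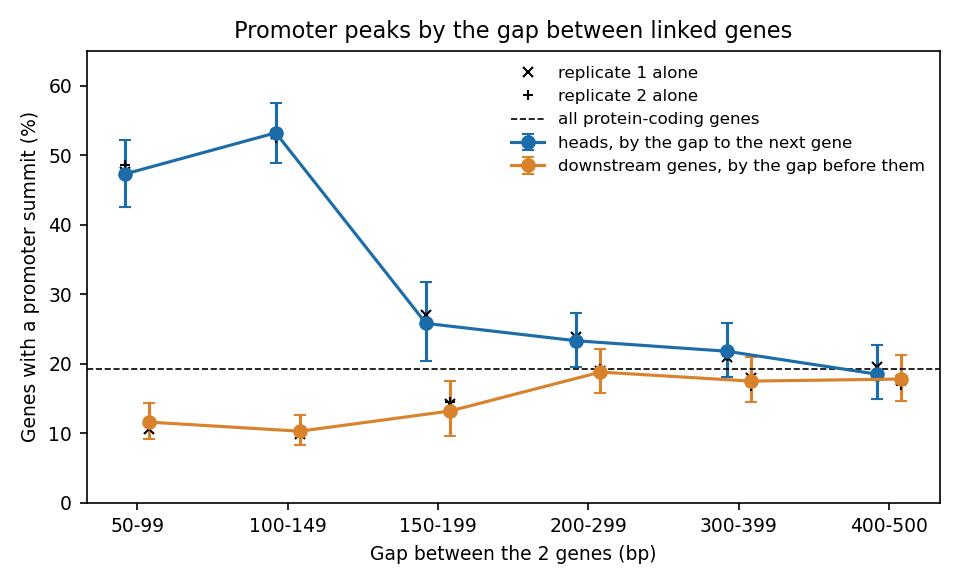
Share of genes with a promoter summit (percent) by the gap between linked genes (bp), for heads by the gap to the next gene and for downstream genes by the gap before them; points are the optimal list with exact 95% intervals, crosses the replicates alone, and the dashed line all protein-coding genes. Heads are at 47.3% and 53.2% for gaps under 150 bp and at 18.5% for gaps of 400 to 500 bp, while downstream genes lie between 10.3% and 18.8%.

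Some of the space before a 5′ end is shared with a gene on the other strand. A divergent neighbour is a gene on the opposite strand whose 5′ end faces the same gap, and a summit between the pair falls in both windows. Heads with a divergent neighbour as the nearest gene upstream within 2000 bp had a peak in 541 of 996 cases (54.3%, 51.2 to 57.4%), and genes in no run with such a neighbour in 1281 of 3989 (32.1%, 30.7 to 33.6%). With no gene within 2000 bp upstream, heads had a peak in 148 of 772 cases (19.2%, 16.5 to 22.1%) and genes in no run in 656 of 5534 (11.9%, 11 to 12.7%). With a gene on the same strand ahead within 2000 bp, the shares were 19.9% of 623 heads, 14.7% of 3330 downstream genes and 12.1% of 3347 genes in no run. Heads had a higher share than genes in no run in each of these settings, and 54.8% and 54.6% of those with a divergent neighbour had a peak in replicates 1 and 2. Downstream genes have a same-strand gene ahead by the rule, so only 6 of them counted as having a divergent neighbour, and 4 of these had a peak.

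The short gap and the divergent neighbour went together with a peak also when each was held. Short-gap heads had a peak in 366 of 535 cases with a divergent neighbour (68.4%, 64.3 to 72.3%) and in 192 of 688 without one (27.9%, 24.6 to 31.4%). Long-gap heads had one in 175 of 461 cases with a divergent neighbour (38%, 33.5 to 42.6%) and in 110 of 876 without (12.6%, 10.4 to 14.9%). Long-gap heads without a divergent neighbour were therefore below the 18% of long-gap downstream genes. A strongest summit that also lay in the window of an opposite-strand gene counted for at least 2 genes. This was so for 501 of 843 heads with a peak (59.4%), for 42 of 501 downstream genes (8.38%) and for 1178 of 2487 genes in no run (47.4%). For 176 of the 843 heads that opposite gene was itself a head, which made 88 pairs of runs that point away from each other across a shared summit.

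The gaps themselves were read without windows, as the stretch between neighbouring protein-coding genes 50 to 500 bp apart. Over all 5179 such gaps, 14.1% held an optimal summit. Gaps between tandem genes held one in 323 of 3328 cases (9.71%, 8.72 to 10.8%), gaps between divergent genes in 388 of 886 (43.8%, 40.5 to 47.1%) and gaps between convergent genes, where no 5′ end faces the gap, in 21 of 965 (2.18%, 1.35 to 3.31%). Per kb of gap there were 0.428 summits in tandem gaps, 1.53 in divergent gaps and 0.0879 in convergent gaps. Tandem gaps thus lay between the other two kinds of gap, and the same order held in replicate 1 (9.62%, 44.6% and 1.97%) and replicate 2 (9.71%, 43.5% and 2.59%).

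Tandem gaps differed by length and divergent gaps did so only in the share that held a summit. Tandem gaps of 50 to 199 bp held a summit in 50 of 1661 cases (3.01%, 2.24 to 3.95%), at 0.261 per kb, and those of 200 to 500 bp in 273 of 1667 (16.4%, 14.6 to 18.2%), at 0.483 per kb. Divergent gaps had 1.56 summits per kb when short and 1.52 when long. The density per kb in divergent gaps was thus nearly the same at both lengths, and in tandem gaps it was not. Short convergent gaps held a summit in 2 of 356 cases.

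**Figure D4:**
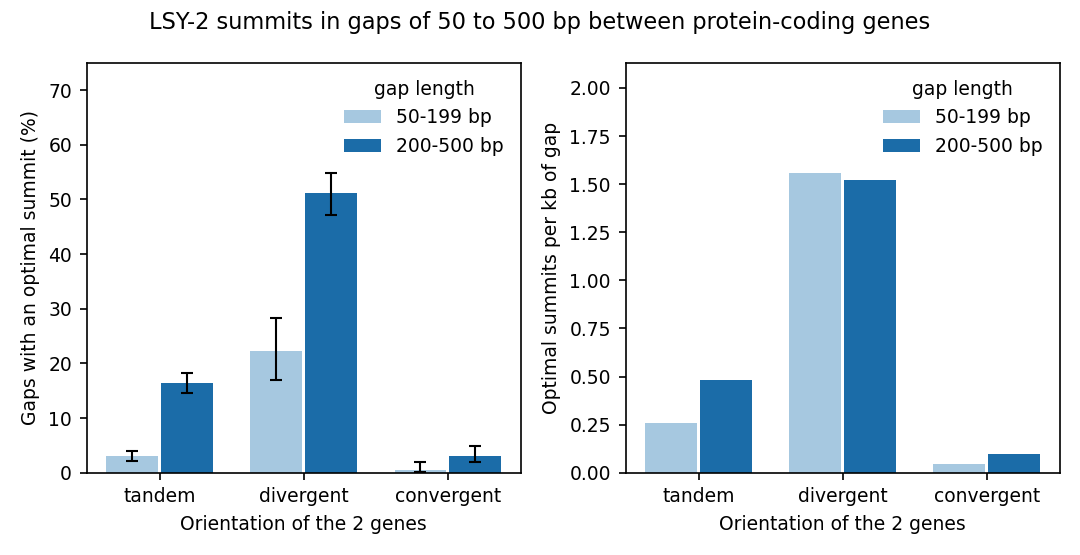
Left, share of gaps of 50 to 500 bp between neighbouring protein-coding genes that hold an optimal summit (percent, exact 95% intervals); right, optimal summits per kb of gap, both by orientation and gap length. Short tandem gaps are at 3.01% and 0.261 per kb and long ones at 16.4% and 0.483 per kb, between convergent and divergent gaps.

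For most downstream genes with a peak, the strongest summit lay outside the head window. The strongest summit lay in the gap before the gene in 327 of 501 cases (65.3%). It lay in an exon of the gene before in 32 cases, in an intron of that gene in 23, beyond that gene in 60 (12%), in an exon of the gene itself in 46 and in an intron of it in 13. The window of the head also held it in 48 cases (9.58%), so 453 of 3407 downstream genes (13.3%) had a strongest summit outside the head window. A downstream window reaches back 1000 bp and a head window ends 200 bp past the 5′ end of the head. They can therefore overlap only where the genes and gaps between are short, and the low shared count is partly set by this. How many windows could share a summit was not counted. After gaps of 50 to 199 bp only 52 of 191 strongest summits lay in the gap (27.2%), and 29.8% were also in the window of the gene before, against 275 of 310 in the gap (88.7%) and 2.58% shared after longer gaps. Downstream genes behind a gene under 1000 bp long had a promoter peak in 132 of 555 cases (23.8%, 20.3 to 27.6%), against 13% and 12.9% behind genes of 1000 to 1999 bp and of 2000 bp or more. Few strongest summits lay within 200 bp of a tRNA, snoRNA or snRNA gene, 3.19% of those at downstream genes and 1.19% of those at heads.

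A narrower window was also read, which lay wholly inside the gap for downstream genes with a gap of at least 200 bp. For heads and genes in no run it could still reach another gene, as at the heads with a gene of their strand over or close to the 5′ end. Downstream genes that overlap another gene could do so too, as C53H9.4, whose 5′ end lies inside egl-30. In the last 200 bp before the 5′ end, 7.62% of all protein-coding genes had an optimal summit. Heads had one in 336 of 2560 cases (13.1%, 11.8 to 14.5%), these downstream genes in 193 of 1718 (11.2%, 9.78 to 12.8%) and genes in no run in 935 of 14006 (6.68%, 6.27 to 7.1%). In this narrow window the intervals of heads and long-gap downstream genes overlapped, and both lay above that of genes in no run. The heads here include those of short and of long gaps, and long-gap heads were not read apart in this window. The replicates gave 13% and 13.2% for heads, 10.8% and 11.2% for long-gap downstream genes, and 6.91% and 6.76% for genes in no run.

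Read by whole runs, a peak at the head alone was the most frequent pattern among runs with any peak. Of 2560 runs, 610 had a peak at the head and at no downstream gene (23.8%), 213 at a downstream gene and not at the head (8.32%), 233 at both (9.1%) and 1504 at neither (58.8%). In 48 of the 233 runs with both, the strongest summit of a downstream gene lay in the head window and so counted for both genes. Further downstream genes of such a run could still have summits of their own, as in the run of rpl-36 described below. Replicate 1 gave 617, 215, 232 and 1496 runs, and replicate 2 gave 603, 207, 240 and 1510. Downstream genes of runs with a head peak had a peak themselves in 263 of 1209 cases (21.8%), and those of other runs in 238 of 2198 (10.8%). The 263 include the 48 genes whose strongest summit also lay in the head window. Such a summit counts for head and downstream gene at once, so part of this difference is built in. By spacing, the head alone had a peak in 35.5% of runs that began with a gap of 50 to 199 bp and in 13.2% of runs that began with a longer one, while the downstream genes alone had one in 5.4% and 11% of them.

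Peaks at heads were also stronger. The median score of the strongest summit was 259 at heads with a peak (quartiles 133 and 501), 192 at downstream genes (104 and 338), 190 at genes in no run (102 and 366) and 200 over all genes with a peak. Ranked by score within replicate 1, the median peak was number 1440 at heads and 2046 at downstream genes, and within replicate 2 it was number 1409 and 2065, where a lower number is a stronger peak. A peak among the 500 strongest stood at 177 heads (6.91% of heads), at 72 downstream genes (2.11%) and at 378 genes in no run (2.7%), against 3.14% of all genes. The optimal list was also cut by rank into 10 equal classes. From the strongest class to the weakest, the share of heads with a peak of that class went from 8.75% to 1.45%, and that of downstream genes from 2.44% to 0.763%. The distance between heads and downstream genes, in points, was thus widest in the strongest class.

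Among the 10 heads with the strongest summits, 3 were genes of ribosomal proteins. The highest score, 19393, was at rpl-18A, a gene for a large-subunit protein of the ribosome. Its summit lay 287 bp upstream of the 5′ end and was the second strongest peak of the optimal list and of each replicate. The summit at rpl-15, another such gene, had 15276 and lay 354 bp upstream. A summit with 13868 lay between F55A11.1 and syx-5, a syntaxin of transport between endoplasmic reticulum and Golgi, and both of these are heads of runs that point away from each other. The same arrangement held for cct-8, a subunit of the CCT chaperonin, and Y55F3AR.2, which shared a summit with a score of 10793, and for lin-53, a histone-binding protein of the RbAp46/48 family, and nra-2, which shared one with 9756. The small-subunit gene rps-20 followed with 9979 and Y25C1A.8 with 7576. These 10 heads had 7 distinct summits, 9 of the 10 shared theirs with the window of another gene, and their ranks were 13 or better in replicate 1 and 12 or better in replicate 2.

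The strongest summits at downstream genes had lower scores and lay mostly in the gap. The highest, 5171, lay 174 bp upstream of wdr-46, a WD-repeat protein, in its gap of 400 bp after ccr-4, which encodes a deadenylase. At unc-16, the JIP3 homologue that takes part in axonal transport, the summit had 4747 and lay 96 bp upstream in a gap of 360 bp. Next among summits in gaps were rps-17, a small-subunit ribosomal protein, with 3864, egl-30, the Gq alpha subunit, and the overlapping gene C53H9.4 with 3380, and the splicing factor gene rsp-6 with 3372. The SUMO-activating enzyme gene uba-2 had 2075 in a gap of 441 bp, a summit that the window of vps-25 also held.

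In the other 3 of the 10 strongest cases the summit also lay in the window of the head. The summit counted for thoc-7, of the THO complex of mRNA export, had 4361 and lay 774 bp upstream of its 5′ end, beyond the short head rpl-29, which is a gap of 115 bp away. The summit for abcf-2, an ABC-F protein, had 4026 and lay beyond T27E9.2, and that for rha-1, an RNA helicase, had 2021 and lay beyond T07D4.5. Genes outside these runs held them in their windows as well, ant-1.1 the former and ddx-19 the latter. Of the 10 genes, 7 had the summit in the gap and 3 in the head window, on 9 distinct summits, and all 7 gaps with a summit were over 200 bp long. Ranks were 116 or better in replicate 1 and 115 or better in replicate 2.

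The gene classes read from symbols showed where heads and downstream genes of one function parted. All 26 heads that encode cytosolic ribosomal proteins had a promoter peak, as had 42 of 44 such genes in no run, but only 2 of the 8 downstream ones did, rps-17 with 3864 and rps-7 with 1539. Both of these have wide gaps before them, of 480 and 478 bp. Among mitochondrial ribosomal proteins 14 of 17 heads, 5 of 27 downstream genes and 23 of 27 genes in no run had a peak, with scores of 1628 at the head mrps-28 and 827 at the downstream gene mrpl-19. RNA polymerase subunits and general factors had 14 of 17 heads, among them rpb-3 of RNA polymerase II with 4716, and 2 of 18 downstream genes, rpb-8 with 231 and rpb-5 with 179. Within each of these functions most heads and few downstream genes had a peak. Each replicate alone was within 1 gene of these counts, except that 21 and 20 of the mitochondrial ribosomal genes in no run had a peak in replicates 1 and 2.

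Other housekeeping classes had smaller numbers. Translation factors had a peak at 9 of 11 heads and 4 of 6 downstream genes, the strongest of the latter at eif-3.C with 1283. Proteasome subunits had one at 7 of 8 heads and 4 of 7 downstream genes, led by rpn-13 with 1838 in a gap of 462 bp. For the respiratory chain the counts were 7 of 8 and 5 of 16, with 599 at the head atp-3 and 693 at the downstream gene cyc-1. Splicing factors had 6 of 9 and 6 of 14, the nuclear pore 4 of 5 and 1 of 4, and genes with vps or vha symbols, mostly for sorting to the vacuole or its acidification, 8 of 12 and 6 of 16. Over the 9 lists together, 95 of 113 heads (84.1%), 35 of 116 downstream genes (30.2%) and 172 of 207 genes in no run (83.1%) had a peak. In this pool the heads were at the level of the genes in no run, and the downstream genes were well below both. The 30.2% was still above the 14.7% of all downstream genes. Single lists differed in how heads compared with genes in no run. The shares were 66.7% and 86.4% for splicing, but 82.4% and 58.8% for RNA polymerase and general factors. Downstream genes were below both other classes in every list. Their share was still 66.7% of 6 translation factors and 57.1% of 7 proteasome genes.

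Large gene families, which often stand in tandem copies, showed no such divide. Few of their genes had a peak, 100 of 2613 (3.83%) against 19.2% of all protein-coding genes, which left little room for a divide to show. Chemoreceptor genes had a promoter peak at 0 of 178 heads and at 1 of 204 downstream genes, srbc-58 with 67.4. C-type lectins had one at 0 of 21 heads and 0 of 35 downstream genes, and collagens at 2 of 16 and 0 of 23. F-box and BTB genes had one at 3 of 56 heads, led by bath-42 with 3450, and at 3 of 74 downstream genes. Nuclear receptors had 3 of 29 and 3 of 37, and detoxification enzymes 0 of 26 and 3 of 39. Over the 6 families together the shares were 2.45% of 326 heads, 2.43% of 412 downstream genes and 4.37% of 1875 genes in no run. Histone genes were few in runs, with 3 of 5 heads and the 1 downstream gene, his-37, with 1420. Genes in none of these lists had shares of 34.8% at heads, 15.8% at downstream genes and 18.8% in no run.

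The 3 runs with the most genes that had a promoter peak began with ribosomal genes or held them. Ties were settled by score, which favoured runs with strong summits, so the ribosomal genes may follow in part from the choice. How many runs tied was not counted. In the run of rpl-18A 4 of 5 genes had a promoter peak: rpl-18A with 19393, the cytochrome c gene cyc-2.1 with 81.6 in its own intron, tctn-1, which encodes a tectonic protein of cilia, with 375 in an intron of cyc-2.1, and timm-17B.1, of mitochondrial protein import, with 1029 in a gap of 330 bp. Its last gene elac-2, for the trimming of tRNA 3′ ends, follows after 109 bp and had none. The run of C53H9.2 had 4 of 6, among them egl-30 with 3380 in a gap of 222 bp and emr-1, which encodes emerin, with 243 in a gap of 479 bp, while rpl-27 (119 bp) and the neuropeptide gene nlp-12 (156 bp) had none. The summit of egl-30 was also the one counted for the overlapping gene C53H9.4. In the run of rpl-36, again 4 of 5 genes had a peak, but the summit of ndab-2 was that of the head, with 921, and epg-4 with 141 and yju-2 with 296 had theirs in gaps of 247 and 281 bp. Inside these 3 runs every summit that lay in a gap was in a gap of more than 200 bp.

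The longest runs had 8 genes each. In the run of golg-5, a golgin gene, the head had a summit of 139 and the last gene, T23G11.11, one of 395 in a gap of 222 bp, while the 6 genes between, the germline regulator gld-1 among them, had none. In the run of ran-4 the head had 240, and snrp-27, after the widest gap of the run at 479 bp, had 87.3. In the run of ntp-1 the head had no peak. A gene on its strand ended 47 bp upstream of ntp-1. Its peaks stood at rsp-6 with 3372, imp-3 with 219 and tag-322 with 503, behind gaps of 474, 233 and 442 bp, while the genes behind gaps of 85, 115 and 99 bp had none. The last gene rpap-3 had none although its gap was 415 bp long.

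**Figure D5:**
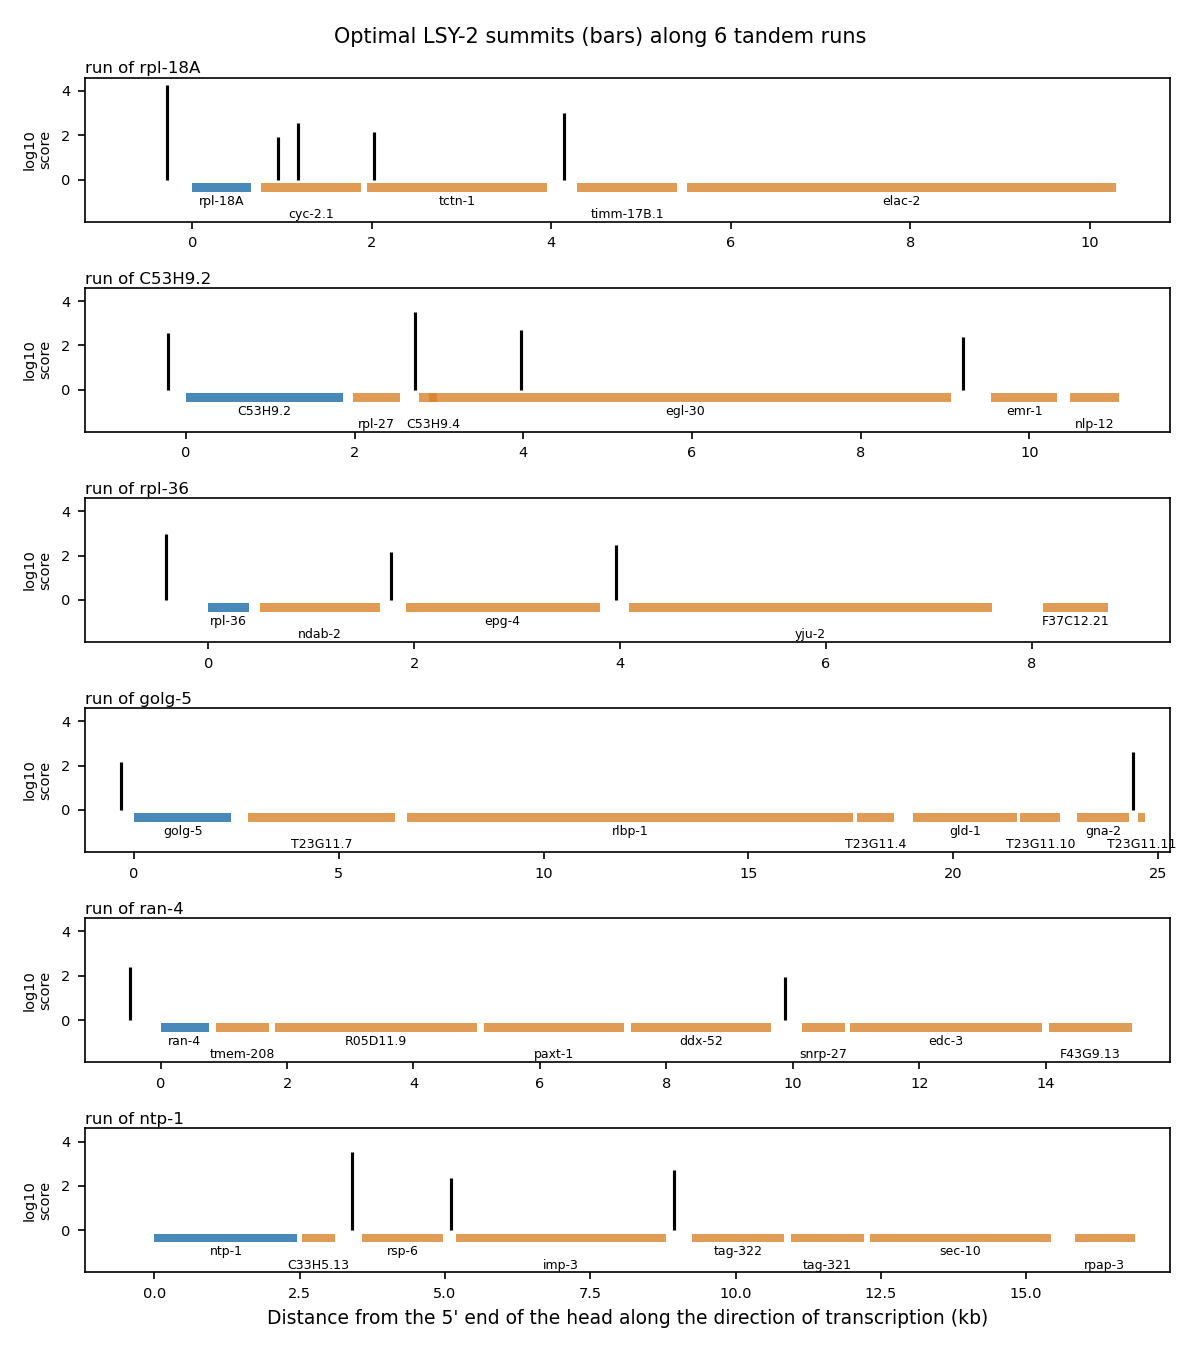
Genes (boxes, heads in blue and downstream genes in orange) and optimal summits (bars, log10 of the score) along 6 runs. The runs are the 3 with the most genes that had a promoter peak and the 3 longest. The axis is the distance from the 5′ end of the head in the direction of transcription (kb). Summits stand ahead of 5 of the 6 heads and otherwise mostly in the wider gaps, as before rsp-6, imp-3 and tag-322 in the run of ntp-1, whose head has none.

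Genes from operons known from textbooks were read one by one. Of 15 such genes, 14 were matched by symbol, 10 were in a run, 5 of these were downstream genes, and 5 of the 14 had a promoter peak, where 19.2% of all protein-coding genes had one. The rule counted gpd-2, lin-26 and ced-9 as heads although another gene of their strand lay over or close to the 5′ end. The 5′ ends of gpd-2 and lin-26 lay inside such a gene, and ced-9 began 3 bp past one. In the glyceraldehyde-3-phosphate dehydrogenase pair, gpd-2 and gpd-3, the scores were 94.1 and 88.4, near the weak end of a list that runs from 58 to 20472, and the summit of gpd-3 lay 20 bp upstream of its 5′ end in the gap of 101 bp printed above. The gene mai-1 ahead of them had 112, but its annotated end overlaps gpd-2, so it was not linked. At fib-1, which encodes fibrillarin, the summit had 1629 and lay 65 bp upstream, and rps-16, which follows after 109 bp, had none. The acetylcholine receptor genes des-2 and deg-3, 112 bp apart, had none, nor had lin-26, lir-1 or tra-2. The succinate dehydrogenase gene mev-1 had 637, but ced-9, the BCL-2 homologue that follows it, begins 3 bp past its end, which put the pair outside the rule. The genes lin-15B and lin-15A overlap, were not linked and had no peak.

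Runs were found on every chromosome. Members of runs were 34.5% of the protein-coding genes of chromosome I, 32.8% of II, 36.1% of III, 28.5% of IV and 30.1% of V, but 16.7% of X. Heads had a promoter peak in 44.7%, 32.6%, 52.7%, 34.2%, 17.9% and 18.4% of cases on I, II, III, IV, V and X, in that order. Downstream genes had one in 20.7%, 13.9%, 19%, 15.3%, 9.05% and 11.3%. All protein-coding genes of these chromosomes had one in 28.2%, 18.9%, 31.3%, 17.8%, 11.5% and 14.2%, so chromosomes I and III were high and V and X low for genes at large too. Heads were higher than downstream genes on all 6 chromosomes in the optimal list and in both replicates. On X the interval of the heads (13.3 to 24.3%, 38 of 207) overlapped that of the downstream genes (7.63 to 15.9%, 28 of 248) and that of genes in no run (12.7 to 15.6%).

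The words marked in the sequences were counted on both strands in all promoter windows and within 50 bp of the strongest summits. ACCGTA was chosen because it had stood out around the strongest of these same peaks. A high share of it at strong summits follows in part from that choice and is no independent support. ACCGTA stood in 31.1% of head windows, 27% of downstream windows and 28.6% of all protein-coding windows, so the windows themselves hardly differed. Around the distinct strongest summits it stood at 103 of 757 heads' summits (13.6%), 30 of 481 at downstream genes (6.24%) and 189 of 2044 at genes in no run (9.25%), against 6.88% of all optimal summits. Most of these summits were strong ones. Among summits of rank 500 or better it was 84 of 154 at heads (54.5%), 18 of 70 at downstream genes (25.7%) and 123 of 274 at genes in no run (44.9%). Over all 500 optimal summits of these ranks it was 196 (39.2%), above the share at downstream genes. At ranks over 1000 it was 2.77%, 2.82% and 3.16%, against 3.86% of all optimal summits of those ranks. All 6 summit regions printed above hold it, but they are not typical of downstream genes: among summits in gaps of rank 500 or better, 13 of 54 had it within 50 bp (24.1%), and the stronger gap summits at rps-17 and egl-30 were not printed.

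The other words divided the classes less. GAGAGA stood within 50 bp of 20.7% of head summits, 15.8% of downstream summits and 24.1% of summits at genes in no run, against 27.1% of all optimal summits. ACGCAG stood near 16%, 14.1% and 17.1%, against 14.6% of all. In gaps of 50 to 199 bp ahead of downstream genes, ACGCAG was present in 11 of 52 gaps with a summit (21.2%) and in 37 of 1498 gaps of genes without a promoter peak (2.47%), and GAGAGA in 15.4% and 5.47%, while ACCGTA was present in 1.92% and 2.4%. In gaps of 200 to 500 bp, ACGCAG was present in 19.3% with a summit and 7.74% without, GAGAGA in 30.9% and 16.8%, and ACCGTA in 14.5% and 10.4%. The median GC content with and without a summit was 34.4% and 29.5% in the short gaps and 33.5% and 32.6% in the long ones. A match is a description of the letters only. The words came from earlier work on these same peaks, so a higher share at summits is no independent support. Gaps with and without a summit were not matched for length within each class, and a longer gap has room for more words.

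The letters next to the 5′ ends were those of a splice acceptor more often in short gaps. The last 3 bases before the 5′ end were CAG for 33.3% of downstream genes with gaps of 50 to 199 bp, for 20.7% of those with longer gaps, for 27.5% of heads, for 19.9% of genes in no run and for 22.1% of all protein-coding genes. TTTCAG, which holds the same CAG, was present in the last 20 bases for 17.8% and 13.6% of the short-gap and long-gap downstream genes, 18.9% of heads and 14.7% of all. An annotated 5′ end that follows CAG may be the first base after a leader, and such genes can have a transcription start that lies further upstream than the window assumes. How often this was so was not tested.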

How the data were processed

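LSY-2 ChIP-seq peaks were analysed from 2 biological replicates of 1 group. Per the deposited file descriptions, relaxed lists of peaks were called by the authors for each replicate and for the pool of both, each against a control, and the irreproducible discovery rate (IDR) was used to derive the optimal list. The sources used here name no aligner, peak caller or IDR threshold. Each peak carries a score that the authors deposited, on a scale not given, and a summit offset in bp, which was added to the peak start. Of the 6312 optimal peaks, 135 had an interval that another summit shared. The 4 lists on ce11 were used, and the lists on ce10 were not used here. The files hold no read counts, so depth is unknown, and intervals cover the counting of genes or gaps only.

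Protein-coding genes came from Ensembl annotation release 115 and symbols from RefSeq (19965 of 19973 matched). The nearest upstream gene was the one that lay wholly upstream on the same strand with the nearest 3′ end, and a 5′ end was the outer end of the gene record. Each replicate was read by as many of its strongest peaks as the optimal list holds. Sequences came from the RefSeq genome of WBcel235. Words were counted on both strands, and CAG and TTTCAG on the gene strand.

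The runs, gene lists, words and named genes were chosen with earlier results of these data known. Named were the 10 heads and 10 downstream genes with the highest scores, the 3 longest runs and up to 2 top members per gene list. The 3 runs with the most genes that had a promoter peak were also named, with ties settled by score. Textbook operon genes were named in any case, of which ppp-1 matched no symbol. Ribosomal symbols of the form rla matched none. The symbol classes src, srf, srfb, srp, srpa, srap, srrt and srgp are not chemoreceptors and were taken out of that list after the names were seen. The linking and window code was tested on constructed gene layouts with known answers. Python 3.11.15 with numpy 2.4.6, pandas 2.3.3, scipy 1.17.1 and matplotlib 3.10.9 was used. Alternatives changed the gap, the window, the peak list, what counts as a promoter peak and which links, heads or summits count.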

Additional observations from a re-analysis of the deposited data

How the results depend on the processing

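The share of heads with a promoter peak (32.9%) was above that of downstream genes (14.7%) under all 16 alternatives, by 1.64 to 3.97 times, and the difference of 18.2 percentage points ranged from 10 to 33.8. In the order heads, downstream genes and difference in points, gaps of 50 to 200 bp gave 45.1%, 11.4% and 33.8, and gaps of 0 to 1000 bp gave 27.9%, 14.7% and 13.3. A window of 500 bp upstream to 100 bp downstream gave 27.2%, 11.9% and 15.3, one of 2000 bp upstream gave 37.6%, 23% and 14.6, and one that ended at the nearest gene body gave 31%, 11.4% and 19.6. The strongest 50% of the optimal peaks gave 25.6%, 9.86% and 15.7, and peaks among the strongest of both replicates gave 30.2%, 12.9% and 17.2. Overlap of the peak interval gave 34.6% and 16.5%, the nearest 5′ end only gave 22.6%, 12.6% and 10, and the 5′ ends of all transcripts gave 34.6%, 16% and 18.6. Without links between genes of 1 name class the values were 35.1%, 16% and 19.1, and without summits near small RNA genes the shares were 32.5% and 14.3%. Without heads that had a same-strand gene over or within 50 bp of the 5′ end, an alternative chosen after the data were seen, heads had 34.2% and the difference was 19.5. Without links where another gene overlapped, the values differed by less than the SD over the replicates. Leaving out either replicate gave 32.9% to 33.2% for heads, 14.6% for downstream genes and a difference of 18.3 to 18.5. The cause of these shifts was not tested, apart from what each alternative leaves out by its construction.

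No paired analysis was possible because the series has only 1 group. With 2 samples of 1 group and no read counts, precision over samples is limited to the values of each replicate, and a gene without a peak is one whose signal did not enter the list, not one without binding.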

Other observations

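All protein-coding genes were also counted by the distance to the same-strand gene ahead, in classes other than the 50 to 500 bp of the runs. Genes with a same-strand gene that ended 0 to 49 bp upstream had a promoter peak in 27 of 210 cases (12.9%, 8.65 to 18.2%), and genes whose 5′ end lay inside a same-strand gene in 74 of 576 (12.8%, 10.2 to 15.9%). With 501 to 1000 bp to the end of the upstream gene the count was 316 of 2132 (14.8%, 13.3 to 16.4%), and with more than 1000 bp it was 2918 of 13664 (21.4%, 20.7 to 22.1%). Replicates 1 and 2 gave 12.9% and 13.8%, 13.7% and 12.7%, 15.3% and 15%, and 21.5% and 21.3% in the same order. Genes with 501 to 1000 bp before them were at the level of the downstream genes of runs (14.7%), and those with more space were higher. These classes include heads, which have no linked gene upstream, and the class with the 5′ end inside a same-strand gene includes 102 heads and 28 downstream genes.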
